A study of Homo sapiens with 3 samples.

Results

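The genes described here encode enzymes that build O-linked sugar chains on proteins and the fucosyl- and sialyltransferases that finish them. They were chosen by name: 43 genes were named, and 35 of them were among the 16463 genes of the deposited table. GALNT3, GALNT14, GCNT4, B3GNT6, ST3GAL6, ST6GALNAC2, FUT3 and FUT6 were not analysed here. The study asked which genes depend on LINC00941, a long non-coding RNA, in AsPC-1, a human pancreatic cancer cell line whose genotype is labelled WT. Total RNA was sequenced in 3 libraries, 1 for cells given a control siRNA (siNC) and 1 for each of the siRNAs against LINC00941 (si#1 and si#2), all at 200 nM and harvested on day 1, 24 h after transfection.

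O-glycosylation of the mucin type starts in the Golgi apparatus, where GalNAc-transferases of the GALNT family attach N-acetylgalactosamine to serine or threonine. This single sugar is the Tn antigen. Sialic acid placed directly on it gives sialyl-Tn. Otherwise core enzymes add galactose or N-acetylglucosamine, further enzymes can lengthen the chain, and sialic acid or fucose caps it, giving the sialyl-T, Lewis and blood group H structures. Pancreatic cancers carry these structures on their mucins, and sialyl Lewis a is the epitope of the tumor marker CA19-9. Other enzymes attach fucose, mannose or N-acetylglucosamine directly to serine or threonine of Notch, dystroglycan and nuclear proteins.

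A log2 fold change is the difference between 2 libraries of the quantile-normalized log2(read count + 1). With 1 library per condition there was no replicate check and no test of either siRNA alone (fits that pool both siRNA libraries are given at the end). The words "rose" and "fell" stand for a change of at least 2-fold, and the intervals, which are exact, cover counting error only, not the spread between cultures or the error of the normalization. Both comparisons share the siNC library. Sets of 3 values are in the order siNC, si#1 and si#2, and pairs of log2 fold changes in the order si#1 and si#2.

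LINC00941 itself gave 1551 reads in the siNC library, 214 after si#1 and 273 after si#2. These counts correspond to log2 fold changes of -2.89 (95% counting interval -3.11 to -2.69) and -2.56 (-2.76 to -2.38), so that both siRNA libraries fit their labels. The libraries held 88690997, 92510692 and 90867405 reads, and the enzyme genes took 0.199% to 0.219% of them. The epithelial keratin genes KRT8, KRT18 and KRT19 stood at 2157 to 3385 TPM in siNC, where TPM is a level per transcript length. Of 10 epithelial markers, only the membrane mucin gene MUC1, a carrier of O-glycans, passed 2-fold, and it fell (log2 fold changes -1.73 and -1.55), while the others, among them KRT7 (0.94 and 0.94), CLDN4 (0.56 and 0.45) and KRT8 (-0.50 and 0.30), lay in both directions. Of 6 fibroblast markers 3 were measured, with a sum of 168, 130 and 132 TPM, nearly all from LUM, and of 5 leukocyte markers 2 were measured, with a sum of 4.07, 3.03 and 1.93 TPM. Their part in the results was not tested, and the acinar and islet markers were not analysed here.

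At least 2-fold higher with each siRNA were FUT1, GCNT1 and GALNT18, and at least 2-fold lower was ST6GALNAC1. FUT1 makes the blood group H structure, GCNT1 builds the core 2 branch, GALNT18 belongs to the GalNAc-transferase family, and ST6GALNAC1 makes the sialyl-Tn antigen. With si#1, 3 of the 35 genes rose, where 5.22% of all genes did, and 1 fell, where 6.8% did. With si#2, POMT1 joined them, so that 4 rose (background 5.49%) and 1 fell (7.17%). The genes common to both siRNAs were 3 that rose (2.53%) and 1 that fell (3.51%). All 4 of these genes were weakly expressed, at a TPM under 1 in every library. In bulk RNA, fewer cells that express a gene and less RNA per cell cannot be told apart.

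Most of the abundant enzymes stayed close to siNC. A mean of 100 reads or more was reached by 31 genes, of which only FUT1 passed 2-fold with both siRNAs, which is 3.23% of them, as among all genes of that depth (3.23%). FUT1 had 40 reads in siNC and reached that mean (118 reads) only through its siRNA libraries. Of the same 31 genes, 22 (71.0%) were within 1.5-fold of siNC with both siRNAs, as were 71.0% of all genes of that depth. FUT1 and POMT1 were at least 1.5-fold higher with both siRNAs (background 5.42%), and C1GALT1, the core 1 galactosyltransferase, was at least 1.5-fold lower with both (background 7.15%). Over the 35 genes the median log2 fold changes were 0.17 and 0.15, against 0.03 and 0.02 over all genes, and 23 and 22 of them lay above 0 (65.7% and 62.9%, against 51.9% and 51.5% of all genes).

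**Figure D1:**
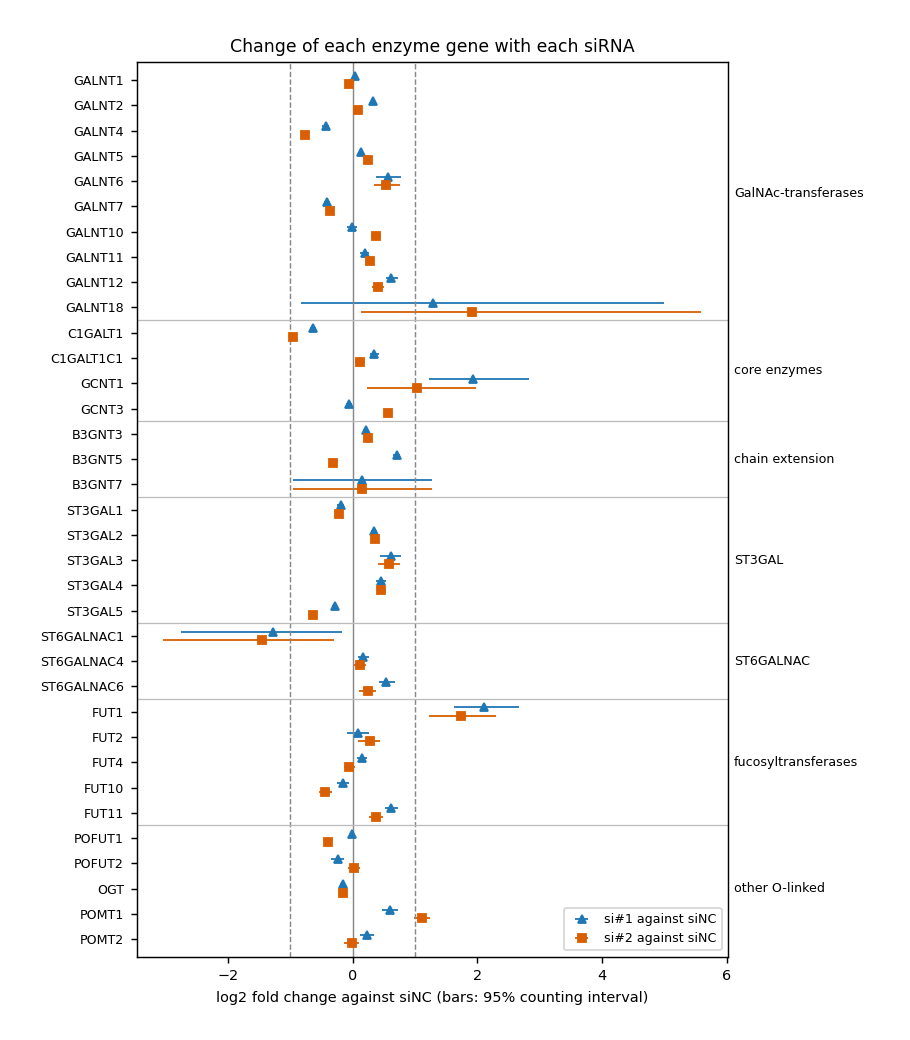
Log2 fold change of each of the 35 enzyme genes against siNC with si#1 (triangles) and si#2 (squares), ordered by role; bars are 95% counting intervals and dashed lines mark 2-fold. FUT1, GCNT1 and GALNT18 lie to the right of the 2-fold line and ST6GALNAC1 to the left with both siRNAs, and the bars of the genes with few reads are long.

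The promoters of FUT1 and GCNT1, which rose, and of C1GALT1, the abundant enzyme gene that was most reduced with both siRNAs, are shown so that the genes can be compared at their start sites. Windows were used for 27 of the 35 genes, which do not include GALNT18 and ST6GALNAC1. Each is the RefSeq window (GRCh38.p14) from 250 bases before to 50 bases after the start of the gene's GENCODE reference transcript, printed 5′ to 3′ on the strand of the gene. Capitals mark GGGCGG and its reverse complement CCGCCC, the GC box.
FUT1 (chr19:48752592-48752891, minus strand): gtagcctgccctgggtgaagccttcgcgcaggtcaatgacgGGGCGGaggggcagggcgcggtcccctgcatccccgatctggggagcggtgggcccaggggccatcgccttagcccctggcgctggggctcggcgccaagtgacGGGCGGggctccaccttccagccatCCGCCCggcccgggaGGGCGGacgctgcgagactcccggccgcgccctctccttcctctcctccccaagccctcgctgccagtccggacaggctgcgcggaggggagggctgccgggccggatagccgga
GCNT1 (chr9:76458932-76459231, plus strand): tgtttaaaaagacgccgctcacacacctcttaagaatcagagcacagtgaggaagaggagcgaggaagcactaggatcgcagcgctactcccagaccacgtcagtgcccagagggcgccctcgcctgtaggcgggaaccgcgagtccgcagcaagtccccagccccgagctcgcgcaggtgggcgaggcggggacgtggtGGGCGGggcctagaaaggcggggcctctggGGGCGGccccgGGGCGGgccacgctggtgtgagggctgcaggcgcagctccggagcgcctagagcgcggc
C1GALT1 (chr7:7182294-7182593, plus strand): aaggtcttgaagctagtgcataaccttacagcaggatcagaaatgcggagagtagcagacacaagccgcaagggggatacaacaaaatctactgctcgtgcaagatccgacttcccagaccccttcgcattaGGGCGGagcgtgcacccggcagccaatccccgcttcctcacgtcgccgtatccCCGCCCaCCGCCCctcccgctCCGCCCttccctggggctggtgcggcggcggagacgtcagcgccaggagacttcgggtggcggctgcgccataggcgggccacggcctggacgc

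The FUT1 window held 4 GC boxes, the GCNT1 window 3 and the C1GALT1 window 4, counted on both strands, and the 3 windows had 75%, 69.0% and 64.3% G and C. GGGCGG was found in 45.0% of all 35116 RefSeq windows, in 65.0% of the windows of the listed genes and in 31 of 41 windows (75.6%) of 27 of the enzyme genes. Windows on chromosome 8 were left out for the enzyme genes but kept in the other sets. CGGAA, the core read by ETS factors such as ETS-1, was searched in the same way together with TTCCG, its reverse complement. It was found in 34.9% of all windows, in 48.8% of those of the listed genes and in 17 of 41 (41.5%) of those of the enzyme genes, and none of the 3 printed windows held it. GGGCGG ends in CGG, with which CGGAA begins, so the motifs can overlap. A match is a match of letters only, and FUT1 has 2 windows and GCNT1 4, of which 1 each is shown.

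The GalNAc-transferases, which attach the first sugar, were the most abundant of these enzymes. The 10 measured members among the named genes, which do not include GALNT9 (described with the partner genes), summed to 305, 293 and 257 TPM. GALNT1, a broadly expressed member, had 26529, 28180 and 25463 reads (114, 108 and 94.4 TPM), with log2 fold changes of 0.04 (0.01 to 0.06) and -0.06 (-0.08 to -0.03). It held 37.5%, 36.7% and 36.8% of the TPM of these 10 genes, nearly the same share in each library. GALNT2, another broadly expressed member, had 19770, 25395 and 20698 reads (74.4, 84.1 and 66.7 TPM), with log2 fold changes of 0.33 (0.30 to 0.36) and 0.09 (0.07 to 0.12).

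GALNT7, which prefers peptides that already carry GalNAc, had 9315, 7118 and 7117 reads (36.3, 24.5 and 23.8 TPM). Both siRNA libraries were lower than siNC by about the same amount, with log2 fold changes of -0.41 (-0.46 to -0.37) and -0.36 (-0.40 to -0.31), short of 1.5-fold. GALNT4, which glycosylates the mucin MUC1 and the selectin ligand PSGL-1, had 7075, 5320 and 4064 reads (log2 fold changes -0.43 and -0.77). On chromosome 12 it overlaps, on the same strand, POC1B (2607, 1957 and 1997 reads) and the readthrough gene POC1B-GALNT4 (1006, 539 and 549 reads), so the assignment of its reads is uncertain. GALNT6 (0.57 and 0.54) and GALNT12 (0.62 and 0.40), a transferase of the digestive tract, were higher with both siRNAs, with 327, 506 and 497 reads for GALNT6 and 1583, 2539 and 2113 for GALNT12. GALNT5, GALNT10 and GALNT11 lay between -0.02 and 0.38.

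GALNT18 was at the limit of detection, with 2, 6 and 10 reads (0.00890, 0.0349 and 0.0552 TPM). Its log2 fold changes were 1.29 (-0.83 to 4.99) and 1.92 (0.13 to 5.59), and the interval with si#1 included no change. The gene overlaps CSNK2A3 on the same strand, which had 95 to 120 reads. None of the other 9 named GalNAc-transferases measured here passed 2-fold with either siRNA.

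**Figure D2:**
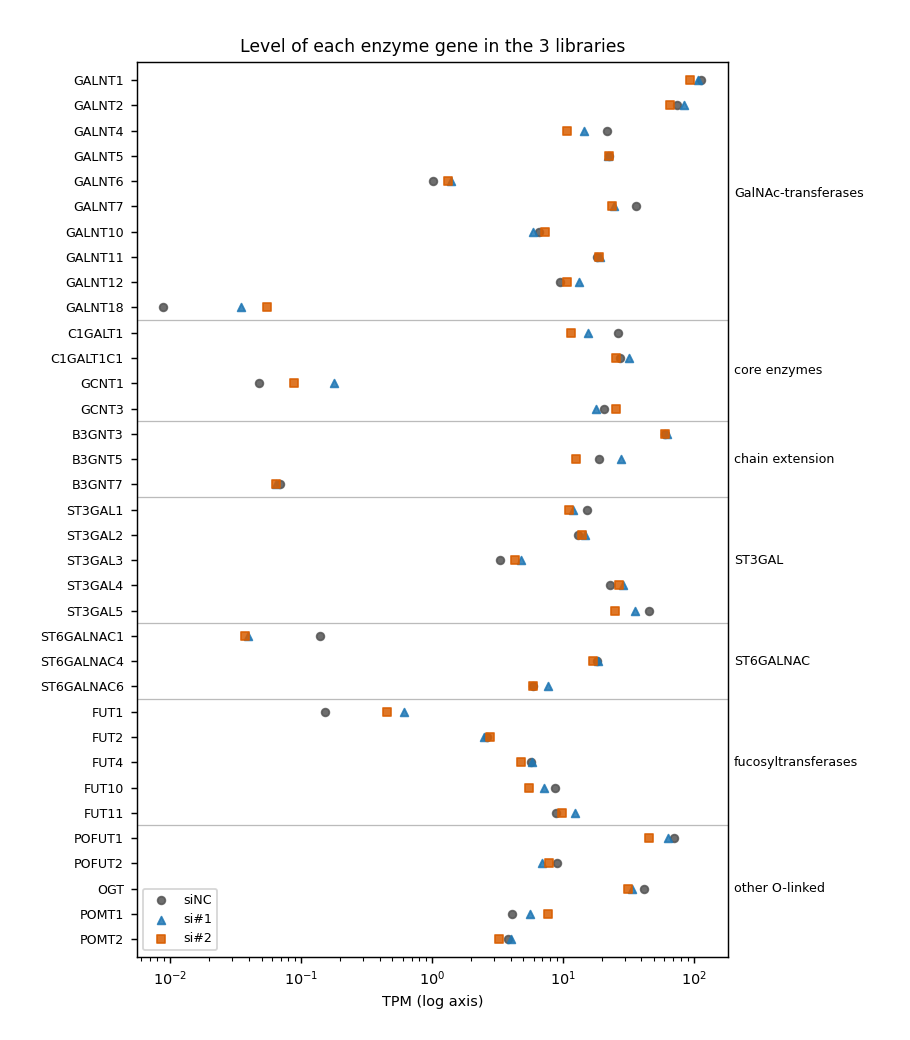
TPM of each of the 35 enzyme genes in siNC (circles), si#1 (triangles) and si#2 (squares) on a logarithmic axis, ordered by role. GALNT1 is the most abundant, at 94.4 to 114 TPM, and FUT1, GCNT1, GALNT18, ST6GALNAC1 and B3GNT7 stay under 1 TPM in every library.

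Among the core enzymes, C1GALT1 and its chaperone moved apart. C1GALT1 (chr7:7157377-7248616) adds galactose to GalNAc to make core 1, the T antigen. It had 10101, 6640 and 5135 reads (26.6, 15.5 and 11.6 TPM). Both siRNA libraries were lower than siNC, with log2 fold changes of -0.64 (-0.68 to -0.59) and -0.96 (-1.0 to -0.91). With si#2 it was thus 1.94-fold lower by quantile normalization, and it was just past 2-fold with TMM, DESeq2 size factors and total count scaling (-1.01 with the last).

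C1GALT1C1, also named Cosmc, is the chaperone without which C1GALT1 is not active. Its reads were 2754, 3600 and 2979 (27.6, 31.9 and 25.8 TPM), with log2 fold changes of 0.34 (0.27 to 0.42) and 0.12 (0.04 to 0.19). Of the summed TPM of C1GALT1, C1GALT1C1, GCNT1 and GCNT3, C1GALT1 took 35.5% in siNC, 23.7% with si#1 and 18.4% with si#2. C1GALT1C1 took 36.8%, 48.7% and 40.8%, although its own TPM was slightly lower with si#2 than in siNC.

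The core 2 enzymes differed between the siRNAs. GCNT1 (chr9:76393869-76507416) had 18, 69 and 37 reads (0.0479, 0.179 and 0.0881 TPM). Both siRNA libraries were above siNC, with log2 fold changes of 1.93 (1.23 to 2.83) and 1.03 (0.22 to 1.97), and the change with si#2 was just under 2-fold with the other count scalings (0.97 to 0.98). The gene overlaps RFK on the other strand and the pseudogene RPSAP9 on its own, each with at least 213 reads, and the sources used here do not say whether the counting used strand. GCNT3, the core 2 and core 4 enzyme of mucin-secreting epithelia, was far more abundant per length, with 6171, 6047 and 8932 reads (20.7, 17.9 and 25.8 TPM). Its log2 fold change was -0.06 (-0.11 to -0.01) with si#1 and 0.56 (0.52 to 0.61) with si#2.

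Of the enzymes that lengthen chains, B3GNT3 was the most abundant and changed little. It extends core 1 on its way to the sulfated selectin ligands, and had 9842, 11604 and 11432 reads (60.5, 63.1 and 60.4 TPM), with log2 fold changes of 0.21 (0.17 to 0.25) and 0.25 (0.21 to 0.29). B3GNT5, the enzyme that starts lacto-series chains on glycolipids, had 4692, 7809 and 3682 reads (18.9, 27.8 and 12.8 TPM). The siRNA libraries lay on opposite sides of siNC, at 0.71 (0.65 to 0.76) with si#1 and -0.32 (-0.38 to -0.26) with si#2.

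Between si#1 and si#2, B3GNT5 differed by 1.03 on the log2 scale (0.97 to 1.08), a 2.04-fold difference. It was the only one of the 35 genes past 2-fold between the siRNAs (2.86%, against 8.23% of all genes). On log2(TPM + 1) the difference was 0.97, and the gene overlaps MCF2L2 on the other strand, which had 38 to 87 reads. B3GNT7, a keratan sulfate enzyme, had 15, 16 and 16 reads (0.0689, 0.0640 and 0.0640 TPM), and its log2 fold change of 0.15 with each siRNA had an interval of -0.96 to 1.27, which included both no change and a 2-fold rise.

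None of the 5 measured ST3GAL sialyltransferases, which cap galactose with sialic acid, passed 2-fold. ST3GAL5, which makes the ganglioside GM3 rather than an O-glycan, was the most abundant in siNC, with 9745, 8157 and 6123 reads (45.3, 35.8 and 25.2 TPM). It was lower in both siRNA libraries, with log2 fold changes of -0.29 (-0.33 to -0.25) and -0.64 (-0.69 to -0.59). ST3GAL4, which acts in the synthesis of sialyl Lewis x, had 2533, 3592 and 3469 reads (23.0, 28.7 and 26.8 TPM), with log2 fold changes of 0.46 (0.38 to 0.53) and 0.46 (0.39 to 0.54). In siNC ST3GAL5 stood above ST3GAL4 per length, whereas with si#2 it stood below it, as ST3GAL5 went from 45.3% to 37.2% and 30.8% of the family's TPM and ST3GAL4 from 23.0% to 29.8% and 32.9%.

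ST3GAL1, which sialylates core 1 and so ends its branching, had 6294, 5573 and 5333 reads (15.4, 12.0 and 11.2 TPM), with log2 fold changes of -0.19 (-0.25 to -0.14) and -0.22 (-0.28 to -0.17). ST3GAL2, which acts on the same core 1 structure and on gangliosides, was at 0.34 and 0.35, and ST3GAL3, which acts on type 1 chains that carry sialyl Lewis a, was at 0.61 and 0.58 (467, 728 and 704 reads). Both comparisons thus gave nearly the same values for ST3GAL1 to ST3GAL4, with the siNC library in common.

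The ST6GALNAC sialyltransferases place sialic acid on the GalNAc next to the protein or on gangliosides. ST6GALNAC1 (chr17:76617407-76643757), the sialyl-Tn synthase, had 22, 8 and 7 reads (0.139, 0.0393 and 0.0377 TPM). Both siRNA libraries were below siNC, with log2 fold changes of -1.28 (-2.76 to -0.17) and -1.45 (-3.04 to -0.30), with wide intervals on these low counts. ST6GALNAC4, which makes disialyl-T, had 1863, 2171 and 2023 reads (18.3, 18.7 and 17.0 TPM), with log2 fold changes of 0.17 (0.08 to 0.26) and 0.12 (0.02 to 0.21). ST6GALNAC6, an enzyme of gangliosides and disialyl Lewis a, had 865, 1288 and 1022 reads (5.91, 7.75 and 5.97 TPM), with log2 fold changes of 0.54 (0.42 to 0.67) and 0.24 (0.10 to 0.37).

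Among the fucosyltransferases, FUT1 (chr19:48748011-48755358) rose with both siRNAs. It had 40, 177 and 136 reads (0.154, 0.608 and 0.453 TPM). Both siRNA libraries lay far above siNC, at 4.31-fold (3.10 to 6.36) and 3.31-fold (2.35 to 4.92), or 2.11 (1.63 to 2.67) and 1.73 (1.23 to 2.30) on the log2 scale. On log2(TPM + 1) the changes were 0.53 and 0.39, since the added 1 is larger than the level itself. FUT2, the secretor enzyme, encoded nearby on chromosome 19, which also makes H structures, had 495, 536 and 606 reads (2.63, 2.52 and 2.77 TPM), with log2 fold changes of 0.08 (-0.10 to 0.26) and 0.27 (0.09 to 0.44). FUT1 therefore made up 5.5%, 19.4% and 14.0% of the TPM of FUT1 and FUT2, and FUT2 stayed the more abundant gene in each library.

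Among the named FUT genes measured here, which leave out POFUT1 and POFUT2, FUT11, FUT10 and FUT4 were the most abundant per length. FUT11, an enzyme of the endoplasmic reticulum, had 1115, 1776 and 1449 reads (8.83, 12.5 and 9.90 TPM), with log2 fold changes of 0.62 (0.51 to 0.73) and 0.37 (0.26 to 0.49). FUT10, its close relative, had 1863, 1746 and 1383 reads (8.68, 7.20 and 5.54 TPM), with log2 fold changes of -0.15 (-0.25 to -0.06) and -0.44 (-0.54 to -0.34). FUT4, which makes Lewis x, had 2111, 2412 and 2036 reads (5.77, 5.84 and 4.79 TPM), with log2 fold changes of 0.14 (0.06 to 0.23) and -0.06 (-0.14 to 0.03). FUT11 and FUT10 thus differed in sign with both siRNAs, and none of these 3 genes passed 2-fold.

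**Figure D3:**
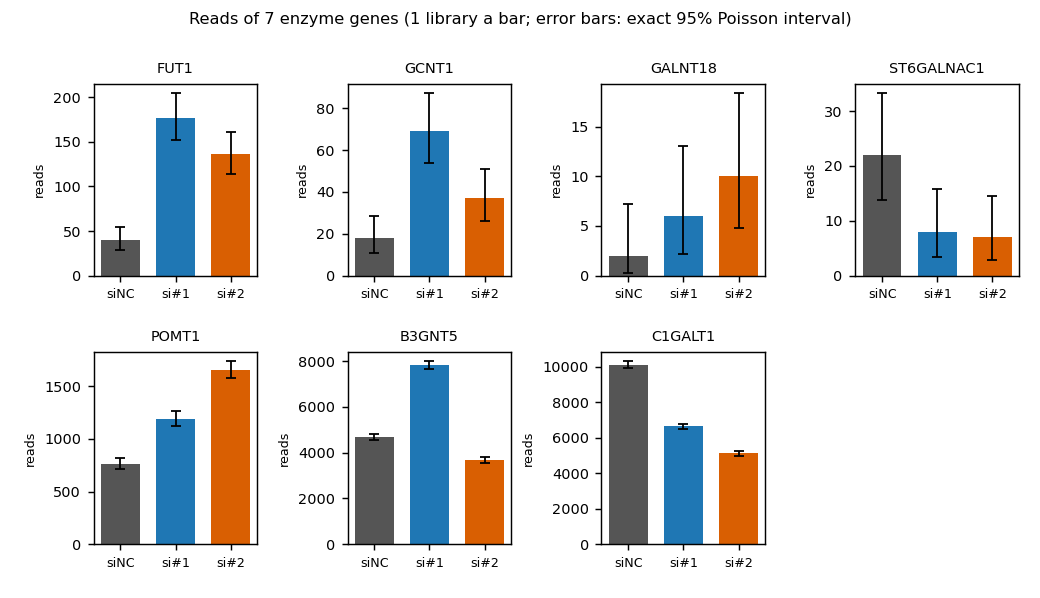
Reads of 7 enzyme genes in the siNC, si#1 and si#2 libraries, 1 library a bar, with exact 95% Poisson intervals as error bars. FUT1 goes from 40 reads in siNC to 177 and 136, C1GALT1 from 10101 to 6640 and 5135, and B3GNT5 lies above siNC with si#1 and below it with si#2.

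Of the enzymes that attach other sugars to proteins, POMT1 rose with si#2. POMT1 (chr9:131502918-131523799) and POMT2 together form the O-mannosyltransferase of dystroglycan. POMT1 had 765, 1191 and 1654 reads (4.11, 5.66 and 7.71 TPM), with log2 fold changes of 0.60 (0.47 to 0.73) and 1.11 (0.99 to 1.24). POMT2 had 1124, 1352 and 1110 reads, with log2 fold changes of 0.23 and -0.02. The partners of the complex thus differed, with POMT1 above siNC in both siRNA libraries and POMT2 near it.

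POFUT1, which attaches fucose to the EGF-like repeats of Notch, was the most abundant of this group, with 22213, 22683 and 16646 reads (71.1, 64.4 and 46.0 TPM). It equalled siNC with si#1 (-0.02, -0.05 to 0.01) and was lower with si#2 (-0.40, -0.42 to -0.37). POFUT2, which acts on thrombospondin repeats, had 1675, 1481 and 1713 reads (9.10, 6.91 and 7.88 TPM), with log2 fold changes of -0.24 (-0.35 to -0.14) and 0.02 (-0.08 to 0.12). OGT, which adds N-acetylglucosamine to nuclear and cytosolic proteins, had 13867, 12479 and 12127 reads (42.2, 33.6 and 31.8 TPM), with log2 fold changes of -0.16 (-0.20 to -0.13) and -0.15 (-0.18 to -0.11).

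TPM and reads were scaled differently. The median gene of the whole table stood at -0.10 (si#1) and -0.18 (si#2) in log2 TPM relative to siNC, against 0.06 and 0.02 in log2 reads, so the TPM values above are lower in the siRNA libraries than the log2 fold changes, which come from reads. The enzyme genes summed to 739.9 TPM in siNC, 716 with si#1 and 618 with si#2.

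The changes of the 31 deeper genes (mean of 100 reads or more) moved with the G and C content and the length of the transcript. Across genes, Spearman's rho with G and C content was 0.42 with si#1 and 0.54 with si#2, against 0.36 and 0.52 over 11952 genes of that depth, and rho with length was -0.48 and -0.36, against -0.32 and -0.36. Genes are not independent replicates, and these values share their libraries. The 5 lowest in G and C were B3GNT5 (35.7%), C1GALT1 (35.9%), GALNT1 and C1GALT1C1 (37.8% each) and GALNT7 (38.2%). Of these, C1GALT1 and GALNT7 were lower with both siRNAs, GALNT1 and B3GNT5 differed in sign between them, and C1GALT1C1 was higher with both. The 5 highest were POFUT2 (57.1%), ST3GAL3 (57.4%), ST3GAL4 (59.0%), ST6GALNAC6 (60.2%) and ST6GALNAC4 (63.9%), all above 0 with both siRNAs except POFUT2 (-0.24 and 0.02). The part of G and C content or length in these changes was not tested.

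**Figure D4:**
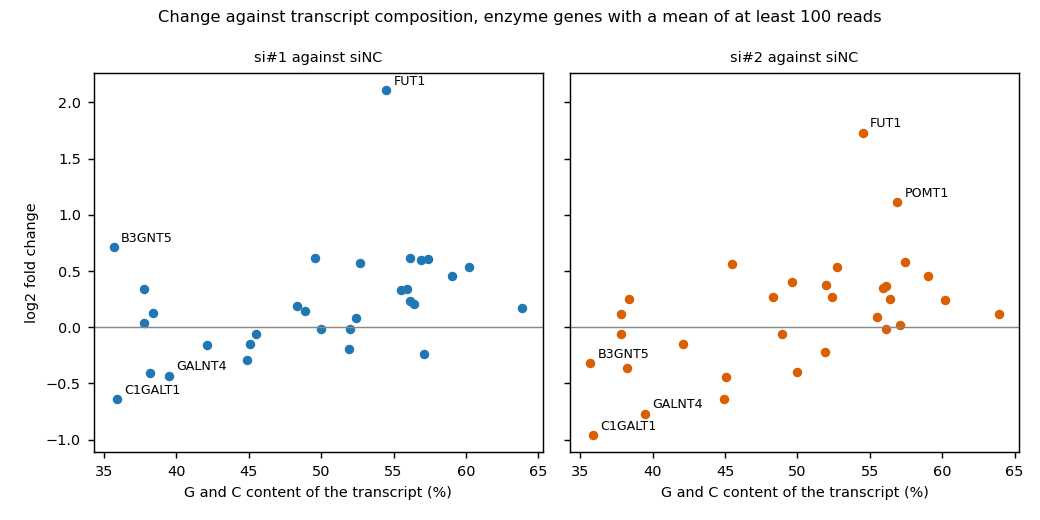
Log2 fold change against siNC with si#1 (left) and si#2 (right) plotted against the G and C content of the reference transcript, 1 point for each of the 31 enzyme genes that averaged 100 reads or more. C1GALT1 lies at 35.9% G and C with -0.64 and -0.96, and the points drift upward to the right, with FUT1 above all others.

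The pathway around these enzymes was described by 65 further measured genes in 7 lists. With si#1 these lists held 2 genes that rose and 5 that fell, where 5.22% and 6.8% of all genes did. Under si#2 the numbers were 4 and 6 (5.49% and 7.17% of all genes), and with both siRNAs 2 and 4 (2.53% and 3.51%). Over the 65 genes the changes had medians of 0.10 and 0.19 on the log2 scale, against 0.03 and 0.02 over all genes. Of the 8 measured transferases of the same families outside the named genes, GALNT9 and B3GNT8 rose with both siRNAs and none fell. FUT8 had 701, 1306 and 1463 reads. It rose with si#2 (1.06, against 0.86 with si#1) and was singled out after its values were seen. GALNT9 had 399, 1050 and 937 reads, with log2 fold changes of 1.34 (1.17 to 1.51) and 1.19 (1.03 to 1.37), while B3GNT8, a branch-lengthening enzyme, had only 3, 18 and 18 reads, a change of 2.27 (0.83 to 5.02) with each siRNA. B3GNT2, which makes poly-N-acetyllactosamine and was the most abundant of this list at 15.5 TPM in siNC, was at 0.47 and 0.39.

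Galactosyltransferases supply chains that fucose and sialic acid cap. Of the 12 measured galactosyltransferase and blood group genes, B3GALT5 and B4GALT1 fell with both siRNAs (background 3.51%) and none rose with both (background 2.53%). ABO, which makes the blood group A and B antigens, fell with si#1 (-1.86, against -0.80 with si#2), and A4GALT, which makes the P antigens, rose with si#2 (1.5, against 0.70 with si#1), both singled out after their values were seen. B3GALT5, which makes the type 1 chain that underlies sialyl Lewis a, had 11411, 3938 and 2606 reads (14.5, 4.45 and 2.83 TPM), with log2 fold changes of -1.55 (-1.61 to -1.50) and -2.11 (-2.17 to -2.05). B4GALT1, which makes type 2 chains, had 3982, 1633 and 1641 reads (15.7, 5.69 and 5.56 TPM), with log2 fold changes of -1.32 (-1.41 to -1.24) and -1.26 (-1.34 to -1.18). B4GALT5, the most abundant of the list at 71.3 TPM in siNC, was at -0.13 and -0.28.

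Genes that make and carry the sugar donors seldom passed 2-fold. Of 5 genes of sialic acid donor synthesis and transport, led by NANS (0.28 and 0.52), none passed 2-fold, and of 6 genes for GDP-fucose, led by TSTA3 (0.35 and 0.63), none did. Of 11 genes for the UDP sugars, none passed 2-fold with si#1 and 1 did with si#2. This was GFPT1, the first enzyme of the hexosamine pathway, at -1.09 with si#2 and -0.22 with si#1, which was singled out after its values were seen.

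A further list of 15 genes covered enzymes that attach or extend O-linked sugars outside the mucin type. Of these, POMK, the kinase of the O-mannosyl glycan of dystroglycan, fell with both siRNAs. It went from 3707 reads in siNC to 1738 and 1698 (-1.13, -1.22 to -1.05, and -1.11, -1.20 to -1.03). TMTC3 fell with si#2 (-1.2, against -0.35 with si#1) and was singled out after its values were seen. POMGNT1, which extends O-mannose and led the list at 46.3 TPM, was at 0.44 and 0.60. Of 8 glycan-removing enzymes, the sialidase gene NEU4 fell on 13, 4 and 5 reads (-1.41, -3.70 to 0.07, and -1.08, -3.07 to 0.35), with intervals that included no change, and FUCA2, a fucosidase that led the list, was at 0.59 and 0.60.

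**Figure D5:**
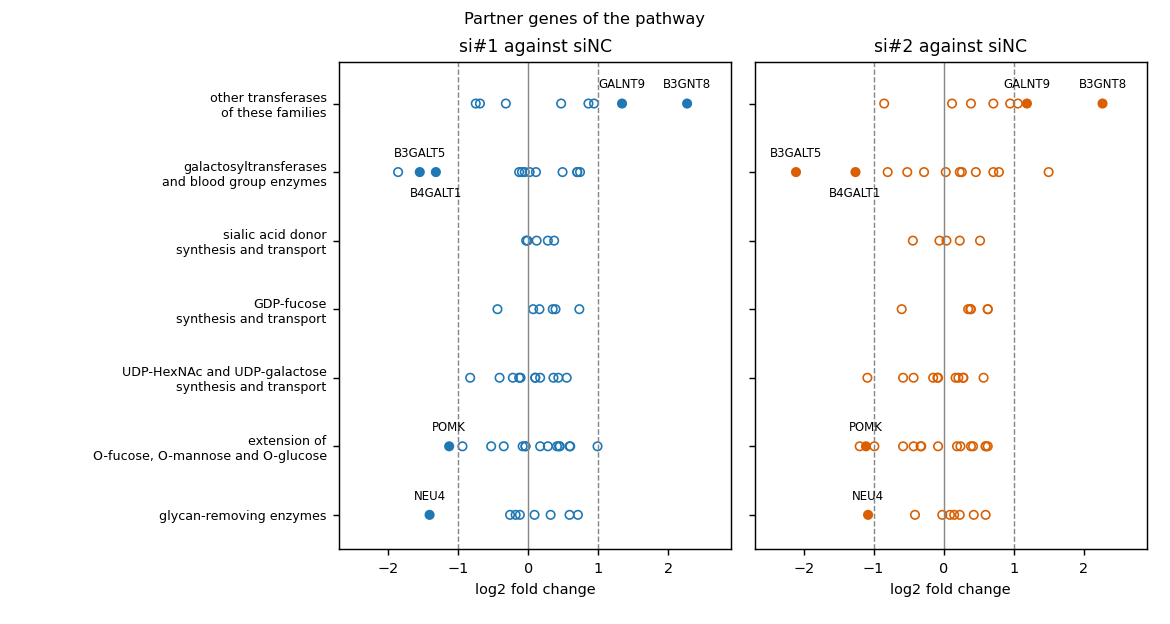
Log2 fold change against siNC with si#1 (left) and si#2 (right) of 65 partner genes in 7 lists, 1 circle a gene; filled circles passed 2-fold in the same direction with both siRNAs. B3GALT5, B4GALT1, POMK and NEU4 lie to the left of the dashed 2-fold line, and GALNT9 and B3GNT8 to the right.

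A fit of both siRNA libraries together against siNC takes the spread of the single siNC library to be that seen between si#1 and si#2. In edgeR's quasi-likelihood test with Benjamini-Hochberg adjustment over 16463 genes, 0 of the 35 genes had an adjusted p under 0.05, as did 0 of all genes (0%), and 8 of the 35 had an unadjusted p under 0.05, among 2958 of all genes. In DESeq2's Wald test 1185 of 12313 genes with an adjusted p (9.62%) were called, and with them 3 of the 31 enzyme genes that received one: C1GALT1 (adjusted p = 0.0076), FUT1 (adjusted p = 0.0283) and POMT1 (adjusted p = 0.0489).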

How the data were processed

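Total RNA of 3 AsPC-1 libraries was sequenced, 1 per condition. The authors aligned paired reads to GRCh38 with HISAT2 and assigned them to known RefSeq genes with StringTie, at versions the sources used here do not give. The authors deposited raw read counts and TPM for 16463 genes, each with 1 read or more in all libraries, and log2 values, which are quantile-normalized log2(read count + 1). Columns headed FPKM hold the read counts in 49389 of 49389 values. The authors' fold changes and 15 columns of a second sheet, which repeats 7 genes, were not used.

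The log2(read count + 1) of all genes was quantile-normalized again here, within 5e-09 of the deposited log2 values. Genes were called at 2-fold, and each ratio of 2 counts was given an exact 95% interval (Clopper-Pearson), shifted by the normalization. Reads per library were 88690997 to 92510692, which limits precision mainly for genes under 100 reads. Reads without molecular identifiers are not independent molecules. Pooled fits were made in edgeR (quasi-likelihood test) and in DESeq2 (Wald test). Scripts were tested on simulated data.

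Groups came from the sample titles. The enzyme genes and the partner lists were chosen with earlier results of these data known. Values are given in full for enzyme genes past 2-fold in any comparison, for the 3 most abundant of each role and for those with a mean of at least 100 reads past 1.5-fold with both siRNAs. Partner genes are named where they passed 2-fold with both siRNAs or led their list by TPM in siNC, except 1 that is not reported here. The other enzyme genes with values, among them FUT2, POMT2, ST3GAL2 and GALNT4, were added to complete families. Alternatives were log2(TPM + 1), TMM, DESeq2 size factors, total count, a pseudocount of 10, a minimum of 100 reads, a 1.5-fold threshold and the pooled fits. Transcript length and G and C content came from GENCODE and positions and promoters from RefSeq (GRCh38.p14), which were matched by symbol or gene ID. Promoter windows were used for 27 of the 35 enzyme genes. Windows on chromosome 8, where ST3GAL1 and FUT10 lie, were left out for the enzyme genes. GALNT4, GALNT5, GALNT6, GALNT18, ST3GAL2 and ST6GALNAC1 were not matched. Software was R 4.3.3, edgeR 4.0.16, DESeq2 1.42.0, Python 3.11.15, numpy 2.4.6, pandas 2.3.3, scipy 1.17.1 and matplotlib 3.10.9.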

Additional observations from a re-analysis of the deposited data

How the results depend on the processing

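With 1 library per condition, no library could be left out. No paired analysis was possible because each condition has 1 library and no replicate numbers. Of the 35 enzyme genes, 4 passed 2-fold with si#1, 5 with si#2, 4 with both and 1 between the siRNAs. On log2(TPM + 1) these counts were 0, 1, 0 and 0, and for genes under 1 TPM the added 1 alone keeps the change small. With a pseudocount of 10 they were 2, 2 and 1 for si#1, si#2 and both, and with a minimum mean of 100 reads they were 1, 2 and 1, since GALNT18, GCNT1 and ST6GALNAC1 have fewer reads. At 1.5-fold 10, 8 and 4 genes passed with si#1, with si#2 and between the siRNAs. The shares of all genes in these 3 comparisons were not counted at 1.5-fold. Within 1.5-fold of siNC with both siRNAs were 23 of the 35 (65.7%), against 60.6% of all genes. TMM, DESeq2 size factors and total count each gave 3 genes with both siRNAs, as GCNT1 dropped out (0.97 to 0.98 with si#2), and C1GALT1 entered with si#2. The pooled fits called 0 (edgeR) and 3 (DESeq2) of the enzyme genes, and 1 of those 3, FUT1, was among the 4 that passed 2-fold with both. The medians over the enzyme genes were 0.12 to 0.17 with si#1 and 0.07 to 0.15 with si#2. Of 152 values of single genes under the alternatives, 19 moved by more than the counting interval and 0 changed sign. The 152 include those under the minimum of 100 reads, which equal the main value by construction and could not move. Depth limits GALNT18, GCNT1, ST6GALNAC1, B3GNT7, B3GNT8 and NEU4, each under 100 reads in every library. It also limits FUT1 in siNC, where that gene had 40 reads.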
